A study of Mus musculus with 51 samples.

Results

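SmoM2 cells of the mouse oesophagus were set against epithelial cells of the E13.5 embryonic oesophagus, to see which embryonic genes the SmoM2 cells reach and which they do not. SmoM2 is an always-active form of Smoothened, the membrane protein that passes on the Hedgehog signal. The comparison takes 8 of the 51 libraries of the series, chosen by their labels: 6 of SmoM2 cells and 2 of embryonic cells, and no other embryonic oesophagus library was analysed here. Total RNA of sorted cells was sequenced. The SmoM2 cells came from CD1 mice carrying Krt5-SmoM2, in which the Krt5 driver acts in basal squamous cells, and were sorted for high EpCAM, an adhesion molecule of epithelial cells (n = 6). The K8YFP+ cells carried Krt5-SmoM2 together with a Krt8YFP reporter on a mixed background and were sorted for high EpCAM and YFP (n = 3). The Embryo cells came from E13.5 oesophagus of mixed-background mice with the Krt8YFP reporter and no SmoM2, and were sorted on EpCAM and YFP (n = 2). The WT cells came from CD1 wild-type oesophagus and were sorted for low EpCAM (n = 6). EpCAM-high cells titled K5SmoM2 and labelled 3w and 7w (n = 4 each) are described last. The raw library names of WT 2, 3 and 5 differ from each other only in the leading number, as do those of WT 4 and 6. WT 3 and 5, and WT 4 and 6, differed least of the WT pairs, and the labels do not say whether they share a source. The labels give no age for the SmoM2, K8YFP+ and WT mice and do not say whether 1 library is 1 animal or a pool. P-values and intervals therefore measure a spread between libraries, which may be technical. That spread was estimated over the 14 groups of all 51 libraries, and so only in part from SmoM2 and Embryo. Age, genotype, strain, gate and the number that leads the raw library names differ together between SmoM2 and Embryo, and their shares in any difference cannot be told apart.

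At E13.5 the oesophagus is a young tube that has parted from the airway, and its lining is still simple and rich in the keratins Krt8 and Krt18. The lining later becomes a layered squamous epithelium, with basal cells that carry Krt5, Krt14 and Trp63 and upper cells that make Krt4, Krt13 and the proteins of the cornified envelope. In the embryo the epithelium itself makes the ligand Shh, which binds Ptch1 on neighbouring mesenchymal cells, lifts the block on Smoothened and switches on Gli1 and Ptch1 there. In SmoM2 cells Smoothened is active within the epithelial cell and needs no ligand.

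Libraries held 8.98 to 12.26 M counts (M, mega) in SmoM2, 1.61 to 6.71 M in K8YFP+, 10.83 and 10.91 M in Embryo and 8.04 to 9.88 M in WT. Levels below are CPM, the usual scaling of a gene's count by the library's total count, and for SmoM2 and WT they are given as the lowest, the median and the highest of the 6 libraries and for Embryo as Embryo 1 and then Embryo 2. Folds are log2 of SmoM2 over Embryo with their SE, from a quasi-likelihood test in edgeR with TMM scaling, and a gene is called at a Benjamini-Hochberg adjusted p under 0.05. TMM scaling adds 0.37 to every log2 fold of SmoM2 over Embryo relative to plain library totals, so that a ratio of CPM is lower than the fold by that amount. It adds 0.68 for K8YFP+ over Embryo, and takes 0.15 from SmoM2 over WT and 0.52 from Embryo over WT. A gene is said to lie within 2-fold of the embryo when the 95% interval of its fold does. CPM do not allow for gene length, so levels are compared between groups and not between genes.

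The 2 embryo libraries stood apart from each other. Their counts differed by a chi-square of 25.2 per degree of freedom, against 7.48 to 18.4 between SmoM2 2 to 6, 24.6 to 29.6 between SmoM2 1 and those 5, and 1.92 to 35.6 between WT libraries. Of 1358 genes that were high in the embryo by the rule given further on, 91 were at least 10-fold higher in Embryo 1 than in Embryo 2, and 0 the other way. Endoderm factors were among them: the hepatic and gut factor Hnf4a read 79.9 and 0.916 CPM in Embryo 1 and Embryo 2, Gata4 read 84.9 and 0.825 CPM, the intestinal factor Cdx2 read 41.9 and 0.183 CPM, and the yolk sac and liver protein gene Afp read 65.9 and 1.65 CPM. The labels name the same tissue for both. Named results that rest on Embryo 1 are therefore marked as such or given without it.

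**Figure D1:**
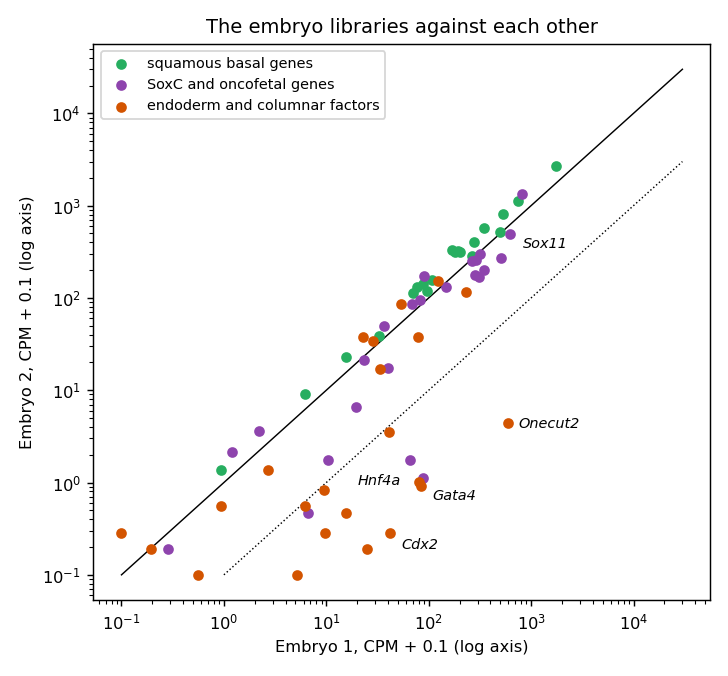
CPM + 0.1 of Embryo 1 (horizontal axis) against Embryo 2 (vertical axis), both on log scales, for squamous basal genes, SoxC and oncofetal genes and endoderm factors. Each point is 1 gene, the solid line marks equal values and the dotted line a 10-fold difference. Several endoderm factors lie far on the Embryo 1 side, with Hnf4a at 79.9 against 0.916 CPM.

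Both groups carried epithelial marks, and the squamous and foregut factors Trp63, Sox2 and Pax9, whose values are given further on, were expressed in both. Epcam, the sorting marker, read 246, 297 and 355 CPM in SmoM2 against 495 and 335 in Embryo (-0.10 ± 0.20, adjusted p = 0.689, within 2-fold), although it was lower in SmoM2 with plain library totals (-0.47, called). The airway factor Nkx2-1 had 0 counts in SmoM2 and 2 in Embryo. Markers of other cells were uneven. Fibroblast markers summed to 28.4 to 50.6 CPM in SmoM2, 66.2 to 583 in K8YFP+, 184 and 377 in Embryo and 18.3 to 110 in WT, and 10 of 14 tested were lower in SmoM2 than in Embryo and 3 higher. The foregut mesenchyme factor Barx1, which defines that layer of the stomach and oesophagus, had 2 counts in each of SmoM2 and Embryo. Muscle markers summed to 7.65 to 13.1 CPM in SmoM2 and 67.8 and 74.6 in Embryo, and 6 of 6 tested were lower in SmoM2. Endothelial markers summed to 9.84 to 19.9 CPM in SmoM2 and 9.23 and 15.9 in Embryo. Erythroid markers summed to 1.16 to 6.62 CPM in SmoM2 and 8.25 to 23.0 in Embryo. Among them the embryonic globin gene Hbb-y had 0 counts in SmoM2 and 146 in Embryo. Hbb-bs had 12 and 3 counts and Hba-a1 6 and 2, SmoM2 to Embryo ratios of 1.4 (95% counting interval 0.378 to 7.74) and 1.05 (0.188 to 10.7). The part of mesenchymal RNA in the genes that were high in the embryo was not tested. In sorted bulk samples, fewer cells of a type and less RNA per cell cannot be told apart.

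SmoM2 and Embryo differed widely. Of 22370 genes tested, 12742 were called (57.0%), 5943 of them higher (26.6% of all tested) and 6799 lower (30.4%), with a median log2 fold of -0.07. These shares are the background for every list count of SmoM2 against Embryo, those of the cell type markers above included. The higher genes were 46.6% of the calls with TMM scaling and 29.1% with plain library totals. The libraries of SmoM2 and Embryo did not overlap in 13569 genes (60.7%), and 6718 genes (30.0%) lay within 2-fold of the embryo.

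To place genes between the embryo and WT, a gene was taken as embryo-high when it averaged at least 5 CPM in Embryo and was called with a log2 fold of at least 2 over WT. Embryo and WT differed in 64.0% of genes tested, and 1358 named genes met this rule. SmoM2 cells reached 36 of them (2.65%), being at least 2 log2 units over WT and within 2-fold of the embryo. They stood above the embryo by at least 1 log2 unit in 16 (1.18%). They were part way in 356 (26.2%), over WT and under the embryo by at least 1 log2 unit each. In 503 (37.0%) they stayed under the embryo by at least 2 log2 units without rising over WT by 1. The remaining 447 (32.9%) met none of these 4 rules. Each fold asked for also had to be called. SmoM2 and Embryo libraries could not overlap in any rule but the first, nor SmoM2 and WT libraries in the part-way rule. Genes far under the embryo whose lowest SmoM2 library overlapped WT, such as Krt8 and Shh, were thus left among the 447. For the background, SmoM2 over WT was called in 46.8% of all genes, 26.3% higher. The classes were made from these same values and are a description with no test. Among embryo-high genes with at least 5 CPM in both embryo libraries (1107), 36 were reached, 12 above, 329 part way and 385 not reached. The number of embryo-high genes itself changes with the setting. With plain library totals it was 1804, of which 605 were not reached. The count of genes reached was 26 without Embryo 1, 17 without Embryo 2 and 48 with plain library totals.

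A promoter window is printed for 1 gene of each of 4 classes, as an example of its members, from 250 bases before to 50 bases after a RefSeq transcript start. RefSeq starts can differ from those of the gene coordinates given further on, which are from GENCODE: the Ptch1 window lies inside the GENCODE gene and not at its outer start, and the Sox11 window lies wholly before the GENCODE start. Sequences are from RefSeq on GRCm38.p6, 5′ to 3′ on the strand of the gene, with CG pairs in capitals. Sox11 (chr12:27342669-27342968, minus strand) was not reached, Epha7 (chr4:28812881-28813180, plus strand) was reached, Ptch1 (chr13:63565686-63565985, minus strand) stood above the embryo and Krtdap (chr7:30787655-30787954, plus strand) was a squamous gene that SmoM2 cells shared with WT.
Sox11: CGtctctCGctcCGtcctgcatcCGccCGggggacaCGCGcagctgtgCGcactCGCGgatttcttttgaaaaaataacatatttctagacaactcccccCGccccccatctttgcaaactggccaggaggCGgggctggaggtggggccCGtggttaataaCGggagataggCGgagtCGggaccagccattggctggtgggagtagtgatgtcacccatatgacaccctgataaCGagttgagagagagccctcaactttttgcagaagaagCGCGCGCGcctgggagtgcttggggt
Epha7: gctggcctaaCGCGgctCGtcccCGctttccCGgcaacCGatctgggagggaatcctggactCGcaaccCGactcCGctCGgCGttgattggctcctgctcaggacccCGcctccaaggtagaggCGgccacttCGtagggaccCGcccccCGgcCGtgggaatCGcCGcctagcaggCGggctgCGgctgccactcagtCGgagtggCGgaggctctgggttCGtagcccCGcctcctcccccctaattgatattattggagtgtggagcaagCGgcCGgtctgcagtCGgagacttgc
Ptch1: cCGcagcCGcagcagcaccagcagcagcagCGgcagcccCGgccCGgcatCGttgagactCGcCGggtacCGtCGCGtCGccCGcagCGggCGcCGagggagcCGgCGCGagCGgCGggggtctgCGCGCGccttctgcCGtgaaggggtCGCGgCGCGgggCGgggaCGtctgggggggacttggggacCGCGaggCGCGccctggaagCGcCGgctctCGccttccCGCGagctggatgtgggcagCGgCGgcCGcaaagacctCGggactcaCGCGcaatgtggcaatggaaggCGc
Krtdap: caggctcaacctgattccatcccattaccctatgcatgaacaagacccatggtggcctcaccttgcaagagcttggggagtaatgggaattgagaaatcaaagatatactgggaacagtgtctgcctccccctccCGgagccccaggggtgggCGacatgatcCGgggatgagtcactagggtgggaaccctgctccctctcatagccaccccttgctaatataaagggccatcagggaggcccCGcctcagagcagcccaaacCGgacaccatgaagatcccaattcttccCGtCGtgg
The Sox11 window holds 21 CG pairs, the Epha7 window 28, the Ptch1 window 47 and the Krtdap window 7, where the median over all 32851 windows is 7 (quartiles 3 and 20). Krtdap alone of the 4 has the letters TATAAA, found on either strand in 4473 windows (13.6%). A match or its absence describes these letters in this window and no more.

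The Hedgehog pathway split by role. Ligand and release genes were lower in SmoM2, while the receptor Ptch1 and the transducers Gli1 and Gli2, which are also targets of the pathway, were far above the embryo. Shh (ENSMUSG00000002633, chromosome 5, 28456815 to 28467256) read 0.105, 0.470 and 1.67 CPM in SmoM2 against 196 and 169 CPM in Embryo, and 0.122 CPM at most in WT. Every SmoM2 library lay far under both embryo libraries (-7.56 ± 0.40, adjusted p = 6.47e-21). Of 8 ligand and release genes tested, 7 were lower and 0 higher (median -2.33). They include the release factor Scube3 (0.316, 0.724 and 1.55 CPM against 33.2 and 50.7, -5.32 ± 0.49), the transporter Disp1, which exports the ligand (3.83, 5.72 and 8.15 CPM against 27.1 and 33.5, -2.01 ± 0.24), and Hhat, which attaches palmitate to it (-1.83 ± 0.33). Ihh, a second ligand, was called lower (-4.78 ± 0.83) on Embryo 1 alone, which read 12.2 CPM where Embryo 2 read 0.275 CPM, and without Embryo 1 the fold was -0.30 (adjusted p = 0.842), against -5.70 without Embryo 2 and -5.69 without SmoM2 4.

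Gli1 (ENSMUSG00000025407, chromosome 10, 127329882 to 127341974) read 194, 210 and 288 CPM in SmoM2 against 3.60 and 6.14 CPM in Embryo and 0.428, 0.674 and 1.22 CPM in WT. The groups did not overlap, and the embryonic epithelium sat much nearer to WT than to SmoM2 (5.86 ± 0.29, adjusted p = 4.24e-18). Gli2, the main activator of the family, read 98.5, 123 and 138 CPM in SmoM2 against 3.05 and 5.86 CPM in Embryo (5.14 ± 0.29). Ptch1 (ENSMUSG00000021466, chromosome 13, 63508328 to 63573598) read 1000, 1450 and 1670 CPM in SmoM2 against 180 and 323 CPM in Embryo and 15.3, 19.7 and 20.4 CPM in WT (2.83 ± 0.28). Both embryo libraries stood over every WT library in all 3 genes, with log2 folds of Embryo over WT of 3.20 ± 0.28 for Ptch1, 2.23 ± 0.41 for Gli1 and 1.07 ± 0.34 for Gli2. The co-receptor Gas1 was higher in SmoM2 (20.8, 24.4 and 37.1 CPM against 5.26 and 3.94, 2.87 ± 0.34), as was Boc (1.75 ± 0.21, and 2.48 without Embryo 2), while the co-receptors Cdon (-1.06 ± 0.18) and Lrp2 (0.948, 3.33 and 5.01 CPM against 45.5 and 41.0, -3.41 ± 0.54) were lower. Hhip, a decoy receptor and in many tissues a target of the pathway, read 0, 0.0497 and 0.209 CPM in SmoM2 against 2.68 and 3.30 CPM in Embryo (-4.58 ± 0.92), so it did not follow Gli1 and Ptch1.

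Gli3, the main repressor form of the family, was lower in SmoM2 (17.3, 21.7 and 30.3 CPM against 82.4 and 120, -1.78 ± 0.24), and its level there overlapped WT (10.6, 20.1 and 27 CPM). Among the 11 transducers 6 were higher and 1, Gli3, was lower (median 0.90), with 3 lower under plain library totals. Smo was higher (170, 195 and 259 CPM against 123 and 125, 1.12 ± 0.15), and its counts may hold reads of the SmoM2 transgene as well, which was not tested. The Gli inhibitor Sufu (0.14 ± 0.21, adjusted p = 0.603) and the ciliary gene Evc2 (0.24 ± 0.16, adjusted p = 0.229) lay within 2-fold of the embryo.

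**Figure D2:**
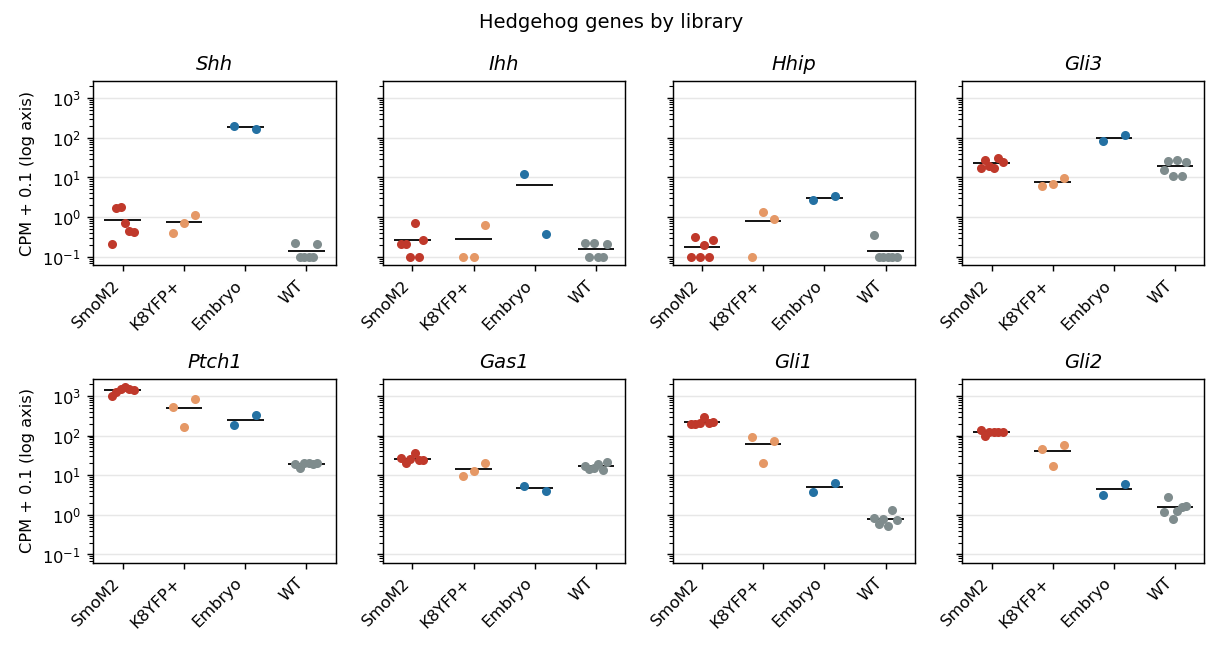
CPM + 0.1 on a log axis of 8 Hedgehog genes in each library of SmoM2, K8YFP+, Embryo and WT. Points are libraries and horizontal lines group means. Shh, Hhip and Gli3 are highest in Embryo, and Gli1, Gli2 and Ptch1 are highest in SmoM2, where Gli1 lies between 194 and 288 CPM, while Gas1 in SmoM2 lies over Embryo and overlaps WT.

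Oncofetal genes, which are active in embryonic tissue and often silent later, were nearly all far below the embryo. Of 22 tested, 18 were lower and 0 higher, with a median of -4.92. Sox11 (ENSMUSG00000063632, chromosome 12, 27334264 to 27342574), a SoxC factor whose promoter is printed above, had 1 count in the 6 SmoM2 libraries together and read 620 and 494 CPM in Embryo, an Embryo to SmoM2 ratio of 34500 (95% counting interval 6190 to 1360000). Hmga2 (ENSMUSG00000056758, chromosome 10, 120361275 to 120476469), a chromatin protein of growing embryonic tissue, read 0.632, 2.03 and 7.72 CPM in SmoM2 against 507 and 272 CPM in Embryo and 0.122 CPM at most in WT. It was part way, above every WT library and far under both embryo libraries (-6.74 ± 0.41, and -6.14 without Embryo 1). The RNA-binding protein genes Igf2bp1 (0.104, 0.235 and 1.22 CPM against 312 and 167, -8.60 ± 0.44, -8.0 without Embryo 1 and -9.27 without SmoM2 6), Igf2bp2 (-5.52 ± 0.46) and Igf2bp3 (-5.10 ± 0.25) were lower. So were Mdk, a secreted growth factor (0.223, 0.957 and 1.56 CPM against 350 and 199, -7.87 ± 0.36), and Vcan, a large matrix proteoglycan (2.04, 5.12 and 13.4 CPM against 810 and 1340, -7.16 ± 0.36). Lin28b, which holds back maturation of let-7 microRNAs, was at a low level and rested largely on Embryo 1 (0.102 CPM at the SmoM2 median against 10.2 and 1.65, -5.01 ± 0.76, -3.09 without Embryo 1, -5.75 without Embryo 2 and -5.60 without SmoM2 5). Trim71, also of the let-7 pathway, had 8 counts in SmoM2 and 960 in Embryo, nearly all in Embryo 1 (87.6 CPM, against 1.01 CPM in Embryo 2), and was left untested by the filter on low counts.

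Sox4, another SoxC factor, read 269, 331 and 494 CPM in SmoM2 against 317 and 298 CPM in Embryo and 30.3, 40.9 and 57.8 CPM in WT. The SmoM2 and Embryo libraries overlapped and all stood over WT, with a fold of 0.55 ± 0.24 over Embryo that missed the threshold (adjusted p = 0.0549). It was called higher without SmoM2 1, without SmoM2 6 and in fits of fewer groups. Sox9, a factor of the embryonic foregut, read 72.7, 90.0 and 194 CPM in SmoM2 against 184 and 146 CPM in Embryo, and its interval lay within 2-fold (-0.23 ± 0.32, adjusted p = 0.542). Only SmoM2 1 made the libraries overlap. SmoM2 2 to 6 (72.7 to 116 CPM) lay under both embryo libraries and within the WT range of 58.9 to 124 CPM. Hmga1 (-0.46 ± 0.21, adjusted p = 0.0579) was also not called and lay within 2-fold, but it was called lower without SmoM2 1 (-0.50) and with plain library totals (-0.83).

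Imprinted growth genes, expressed from 1 parental copy and mostly shut down after birth, gave the lowest median of the lists described here, -6.82 over 20 tested (-6.68 with genes at 0 counts set to their bound), with 19 lower and 0 higher. Igf2 (ENSMUSG00000048583, chromosome 7, 142650766 to 142666816), the fetal insulin-like growth factor, read 0.979, 1.32 and 4.53 CPM in SmoM2 against 2580 and 2160 CPM in Embryo (-9.98 ± 0.28, adjusted p = 2.08e-30). H19, its neighbour, read 12.4, 20.8 and 37.7 CPM in SmoM2 against 4070 and 3410 CPM in Embryo (-6.98 ± 0.46) and 151, 206 and 591 CPM in WT. SmoM2 cells thus lay under both other groups in H19, and likewise in Peg3 (0.211, 0.482 and 1.36 CPM against 1150 and 395 in Embryo and 2.71, 7.82 and 9.95 in WT, -9.94 ± 0.61, and -8.89 without Embryo 1). Grb10, a brake on insulin receptors, read 0.632, 0.846 and 1.63 CPM in SmoM2 against 1110 and 675 CPM in Embryo (-9.40 ± 0.38). Dlk1, a Notch-like membrane protein gene, had no SmoM2 count and read 40.7 and 18.4 CPM in Embryo, where the SmoM2 floor of 3 counts over the group makes SmoM2 at least 610-fold lower. The zinc finger gene Zim1 likewise had no SmoM2 count, with 75.5 and 19.1 CPM in Embryo. Cdkn1c, a brake on the cell cycle, was part way (3.34, 3.86 and 5.16 CPM in SmoM2 against 83.4 and 98.5 in Embryo and 0.707, 0.985 and 1.71 in WT, -4.09 ± 0.31). The Igf2 receptor Igf2r was slightly lower (-0.36 ± 0.12) and was not called without Embryo 1. Fibroblast markers were also higher in Embryo, by the sums given above, and their part in these folds was not tested.

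**Figure D3:**
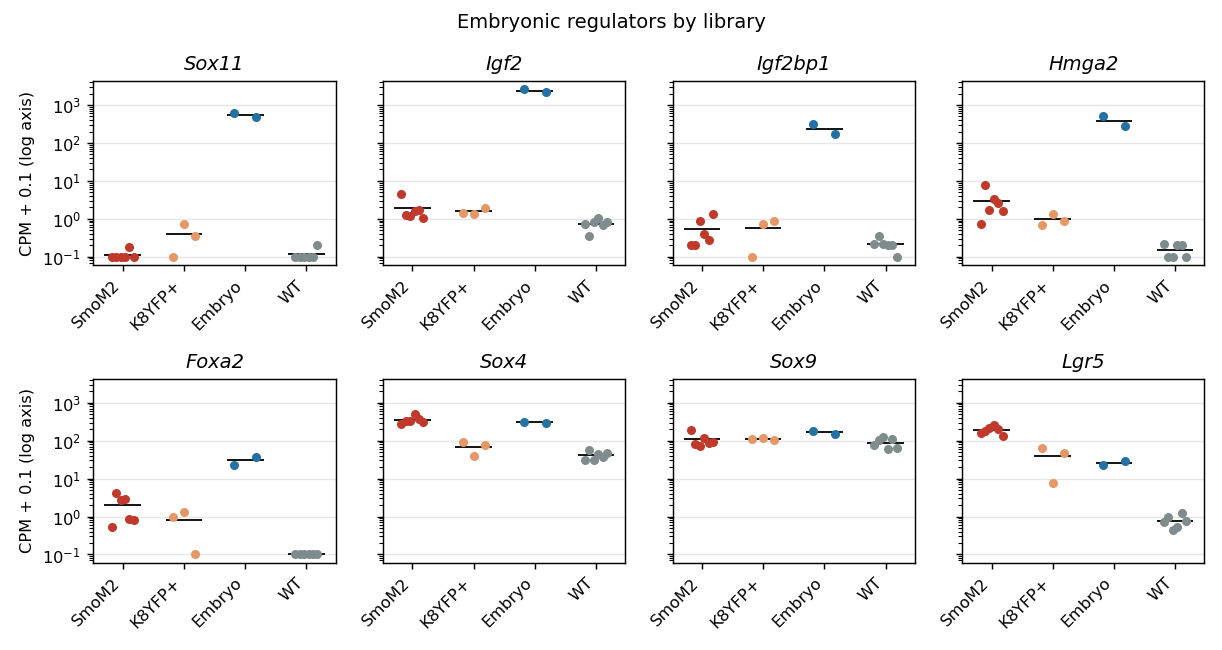
CPM + 0.1 on a log axis of 8 fetal and foregut genes in each library of SmoM2, K8YFP+, Embryo and WT. Points are libraries and horizontal lines group means. Sox11, Igf2, Igf2bp1, Hmga2 and Foxa2 are far under Embryo in SmoM2, Sox4 overlaps it, and Lgr5 stands above it. Sox9 overlaps Embryo by SmoM2 1 alone.

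Endoderm and columnar factors were mostly low in SmoM2, but much of this rests on Embryo 1. Of 20 tested, 13 were lower and 2 higher (median -4.58), with 8 lower without Embryo 1. Foxa2 (ENSMUSG00000037025, chromosome 2, 148042877 to 148046969), a pioneer factor of gut endoderm, was high in both embryo libraries. It read 0.421, 1.72 and 3.96 CPM in SmoM2 against 22.6 and 37.2 CPM in Embryo and had no count in WT, so SmoM2 cells were part way (-3.64 ± 0.46, adjusted p = 9.31e-08). Prox1, a factor of liver and lymphatic cells, was also high in both (0.245, 0.785 and 0.843 CPM against 28.3 and 34.4, -5.19 ± 0.50). Foxa1, a relative of Foxa2 in endoderm, overlapped the embryo (88.6, 114 and 130 CPM against 232 and 117, -0.27 ± 0.24, within 2-fold), and was called lower with plain library totals (-0.64). Onecut2 read 0, 0.206 and 0.489 CPM in SmoM2 against 589 and 4.31 CPM in Embryo (-9.81 ± 1.16, and -3.62 without Embryo 1). Gata4 (-8.01 ± 1.27) and Gata6 (-5.02 ± 0.52) shrank to -2.26 and -2.24 without Embryo 1, and Hnf4a (-5.94 ± 0.79) to -0.43 (adjusted p = 0.701). Without Embryo 2 the folds were -10.76 for Onecut2, -8.95 for Gata4, -5.87 for Gata6 and -6.88 for Hnf4a. Cdx2 had no SmoM2 count, which makes SmoM2 at least 434-fold lower, a bound that rests on Embryo 1. The squamous and secretory epithelial factors Ehf (505, 548 and 593 CPM against 53.8 and 85.5, 3.35 ± 0.18) and Elf3 (96.7, 137 and 152 CPM against 78.3 and 37.6, 1.53 ± 0.22, and 2.23 without Embryo 1) were the 2 higher genes, and both overlapped WT.

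Factors of foregut and squamous identity went both ways: of 25 tested, 10 were higher, 8 lower and 8 within 2-fold, with a median of 0.20. Over all genes tested 26.6% were higher, 30.4% lower and 30.0% within 2-fold. Pitx1 (121, 149 and 216 CPM against 136 and 220) and Pax9 (134, 161 and 203 CPM against 120 and 218), which pattern the oral and pharyngeal lining, overlapped the embryo and WT alike, though without Embryo 2 Pax9 was called higher (0.87). Sox2, which specifies the oesophagus within the foregut, read 56.5, 87.5 and 151 CPM in SmoM2 against 52.1 and 93.5 CPM in Embryo and 23.8, 27.2 and 41.5 CPM in WT. It was called higher (0.82 ± 0.27, adjusted p = 0.0135) although the libraries overlapped, and the call was lost without Embryo 1 (0.53, adjusted p = 0.246) and with plain library totals (0.45, adjusted p = 0.185). Sox21, a SoxB factor of the squamous lining, likewise overlapped (164, 241 and 325 CPM against 140 and 273, 0.60 ± 0.20, 0.27 with adjusted p = 0.388 without Embryo 1, and 1.19 without Embryo 2). Trp63 (ENSMUSG00000022510, chromosome 16, 25683763 to 25892102), the master factor of stratified epithelia, read 650, 775 and 984 CPM in SmoM2 against 288 and 570 CPM in Embryo (1.25 ± 0.23, and 1.85 without Embryo 2). Sox15 (4.48 ± 0.39), Tfap2a (3.25 ± 0.16) and the thyroid and foregut factor Foxe1 (103, 115 and 198 CPM against 15 and 24.6, 3.11 ± 0.34) were higher. Members of the Eya factors and their partner Six4, which work together in branchial organs, were lower. Six4 read 0.086, 0.330 and 0.417 CPM in SmoM2 against 19.9 and 23.1 CPM in Embryo (-5.76 ± 0.59), Eya1 read 0, 0.832 and 1.88 CPM against 25.2 and 52.6 CPM (-4.93 ± 0.53, and -4.28 without Embryo 2), and Eya2 fell by 3.64 ± 0.32 on the log2 scale. Isl1, which acts in early foregut, was lower as well (-5.22 ± 0.76, and -5.98 without SmoM2 6).

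The keratins of simple epithelium were below the embryo in SmoM2 cells, and Krt8, Krt18, Krt7 and Krt20 were called higher than in WT. Krt8 (ENSMUSG00000049382, chromosome 15, 101996698 to 102004482) read 0.979, 3.70 and 8.55 CPM in SmoM2 against 380 and 173 CPM in Embryo and 0.214, 0.416 and 1.12 CPM in WT. All 6 SmoM2 libraries lay far below both embryo libraries, and the lowest overlapped WT (-5.70 ± 0.52, and -4.95 without Embryo 1). Its partner Krt18 (1.39, 4.09 and 5.86 CPM against 378 and 200, -5.86 ± 0.47, and -5.25 without Embryo 1), Krt19 (5.22, 6.98 and 10.6 CPM against 307 and 314, and 2.49, 4.25 and 5.72 in WT, which SmoM2 overlapped, -5.04 ± 0.37) and Krt7 (0.897, 5.42 and 10.2 CPM against 77.5 and 89.4, -3.59 ± 0.53) were lower too. Krt20, a keratin of differentiated gut and urothelial cells, came nearest: 15, 43.6 and 44.4 CPM in SmoM2 against 112 and 206 CPM in Embryo and 0.321, 0.986 and 1.72 CPM in WT (-1.67 ± 0.46), and it was not called without Embryo 2 (-1.14, adjusted p = 0.0944). Since the embryo cells were sorted on the Krt8YFP reporter and SmoM2 cells were not, Krt8 is no independent readout between them. Of 23 simple epithelial genes 13 were lower and 5 higher (median -1.67), and without Embryo 1 10 were lower. The embryonic claudin Cldn6 (0, 0.127 and 0.209 CPM against 103 and 42.9, -8.78 ± 0.71, and -7.93 without Embryo 1) and the apical membrane gene Prom1 (0.086, 0.465 and 0.632 CPM against 68.8 and 47.5, -6.69 ± 0.39) were lower, and Cldn8 (22, 32.2 and 52.2 CPM against 9.05 and 5.13, 2.67 ± 0.30) and the cortical linker Ezr (1.39 ± 0.21) were higher.

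Squamous genes ran the other way. Of 20 basal genes, 14 were higher and 0 lower (median 1.5), and with plain library totals 1 was lower. Krt5 read 2210, 2280 and 3130 CPM in SmoM2 against 202 and 316 CPM in Embryo (3.61 ± 0.32), and Krt14 read 915, 1280 and 1770 CPM against 32.6 and 38.4 CPM (5.56 ± 0.35). Krt15 was an exception, with SmoM2 and Embryo overlapping (622, 698 and 708 CPM against 530 and 817, 0.40 ± 0.33, adjusted p = 0.326). The water and glycerol channel Aqp3 (316, 356 and 407 CPM against 6.09 and 9.07, 5.91 ± 0.21) and the neurotrophin receptor Ngfr (35.4, 44.0 and 59.6 CPM against 0.831 and 1.28, 5.74 ± 0.51) had the largest folds of the list. The hemidesmosome genes Itga6 (1.52 ± 0.15), Itgb4 (1.46 ± 0.18) and Col17a1 (1050, 1330 and 1510 CPM against 180 and 311, 2.78 ± 0.25) were higher, while Dst and Plec, which link them to keratin, lay within 2-fold. Without Embryo 2, Dst (0.79) and Plec (0.86) were called higher, as was Plec without SmoM2 4 (0.55).

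Of 38 squamous differentiation genes, 37 were higher and 0 lower, with a median of 5.35. The exception was Krt78 (1.36 ± 0.70, adjusted p = 0.111). Krt13, a keratin of the upper oesophageal layers, read 2990, 3930 and 4570 CPM in SmoM2 against 24.1 and 45.9 CPM in Embryo and 5770, 7490 and 10800 CPM in WT (7.13 ± 0.27). Its partner Krt4 read 601, 1680 and 2060 CPM in SmoM2 against 35.1 and 63.0 CPM in Embryo and 3840, 5980 and 9790 CPM in WT (5.27 ± 0.53). For these 2 genes SmoM2 cells lay between the groups, under WT and far over the embryo. The cross-linking enzyme Tgm3 (1120, 1500 and 1630 CPM against 0.554 and 0.916, 11.27 ± 0.64) and the cornified envelope gene Sprr3 (165, 276 and 369 CPM against 0.277 and 0.367, 9.97 ± 2.10) were nearly silent in Embryo. Krt10, a keratin of epidermis, was above both (568, 606 and 981 CPM in SmoM2 against 6.19 and 8.98 in Embryo and 11.2, 19.8 and 33.1 in WT, 6.82 ± 0.37). Dissociation and stress genes moved with these lists, 18 of 22 being higher in SmoM2 and 0 lower (median 1.88; 1 lower with plain library totals), with the immediate-early gene Fos at 947, 1270 and 1950 CPM in SmoM2 against 446 and 666 CPM in Embryo. Their part in the squamous folds was not tested.

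**Figure D4:**
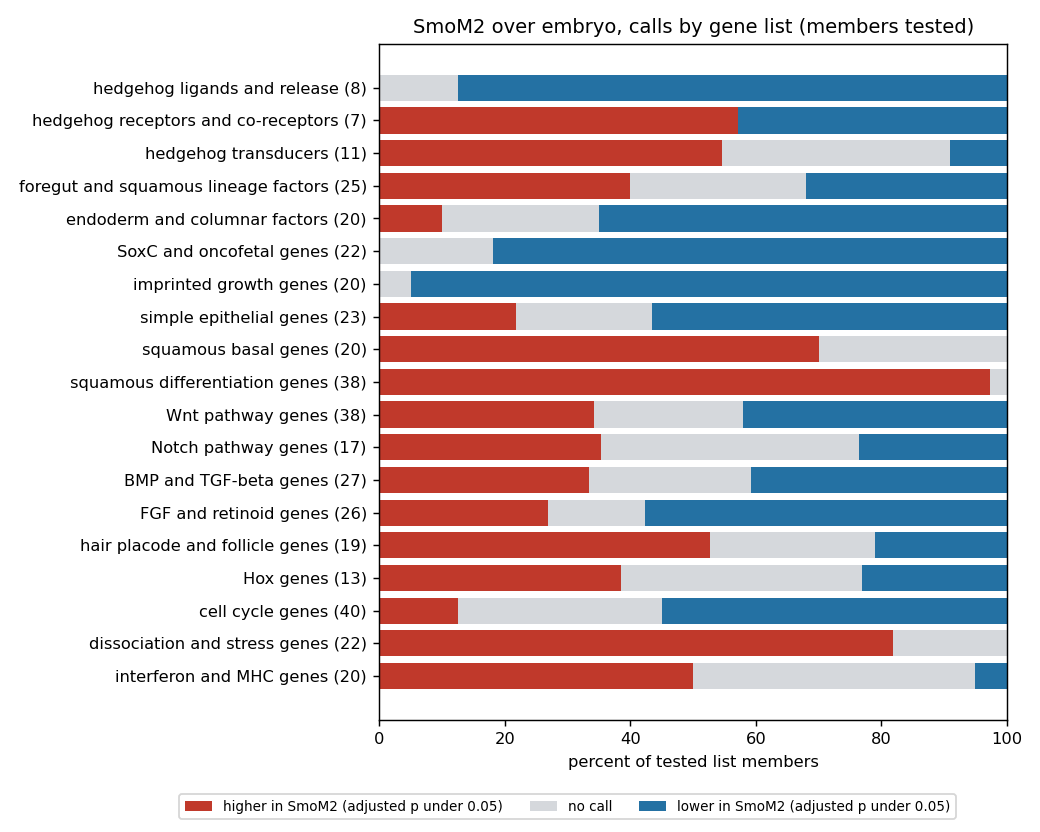
Percent of tested members of 19 gene lists that were higher (adjusted p under 0.05), not called and lower in SmoM2 than in Embryo. Squamous differentiation genes were higher in 37 of 38 and imprinted growth genes lower in 19 of 20.

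Genes of other signalling pathways went both ways. Over all genes tested 26.6% were higher and 30.4% lower, which is the background for the list counts that follow. Of 38 Wnt genes, 13 were higher and 16 lower (median -0.28). Lgr5, a receptor for R-spondins and a stem cell marker in gut and hair, read 134, 193 and 264 CPM in SmoM2 against 23.1 and 28.8 CPM in Embryo and at most 1.11 CPM in WT (3.26 ± 0.47), so it was high in the embryo and higher still in SmoM2. Its relative Lgr6 was above both other groups (34.9, 48.6 and 55.6 CPM against 0.554 and 0.641 in Embryo, 6.63 ± 0.75). The ligand Wnt7b (107, 146 and 194 CPM against 1.11 and 2.57, 6.65 ± 0.33, and 7.40 without Embryo 2) and the secreted Wnt inhibitor Wif1 (16.5, 33.1 and 131 CPM against 0 and 0.183) were higher. Wif1 had 2 counts in Embryo and none in WT, a SmoM2 to Embryo ratio of 512 (95% counting interval 142 to 4230). Lef1, a transcription factor of the pathway, was under the embryo at low levels (2.04, 4.01 and 6.57 CPM against 6.46 and 14.8, -1.01 ± 0.46, adjusted p = 0.0483), and was not called without Embryo 2 (-0.27) or without any of SmoM2 2, 4, 5 and 6 (-0.98, -1.03, -0.93 and -0.87). The feedback target Axin2 (5.27, 6.74 and 8.75 CPM against 11.4 and 17.6) did not pass (-0.72 ± 0.42, adjusted p = 0.130), and was called lower with plain library totals (-1.09). The antagonist Sfrp2 (-3.58 ± 0.40, and -2.73 without Embryo 2) and the feedback inhibitor Nkd1 (-3.78 ± 0.73) were lower.

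Of 17 Notch genes 6 were higher and 4 lower (median 0.35), led by the ligand Dll1 (60.2, 71.5 and 83.6 CPM against 4.80 and 3.12, 4.54 ± 0.39) among the higher and by the targets Hey1 (0.521, 1.65 and 2.21 CPM against 14 and 25, -3.28 ± 0.50) and Hes1 (57.7, 80.2 and 87.2 CPM against 327 and 310, -1.68 ± 0.25) among the lower. Of 27 BMP and TGF-beta genes 9 were higher and 11 lower (median 0.27). The ligand Bmp3 (4.29 ± 0.29, and 4.96 without Embryo 2), the activin inhibitor Fst (2.68 ± 0.41) and the ligand Tgfb1 (2.33 ± 0.22) were higher, and the receptors Bmpr1b (2.11, 3.58 and 4.32 CPM against 25.5 and 26.8, -2.52 ± 0.47) and Tgfbr1 (-1.42 ± 0.19) were lower. Of 26 FGF and retinoid genes 7 were higher and 15 lower (median -1.09). The FGF feedback genes Spry1, Spry2 and Spry4 fell by 0.85, 1.2 and 1.23 on the log2 scale, and the FGF-responsive factors Etv4 (-1.43 ± 0.37) and Etv5 (2.95, 3.65 and 5.17 CPM against 44.7 and 38.0, -3.05 ± 0.29) were lower. Without Embryo 1, Spry1 (-0.52), Spry4 (-1.11) and Etv4 (-0.81) were not called. Etv1, of the same family, was above the embryo (35.6, 61.2 and 97.6 CPM in SmoM2 against 8.77 and 16.6 in Embryo and 0.353 at most in WT, 2.75 ± 0.45). The retinoic acid receptor Rarb was lower (7.5, 9.51 and 15 CPM against 59.2 and 104, -2.56 ± 0.22).

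Hair placode and follicle genes were higher in 10 of 19 and lower in 4 (median 1.36). The connexin Gjb6 (72.7, 103 and 154 CPM in SmoM2 against 1.39 and 1.65 in Embryo and 2.49, 10.7 and 27.9 in WT, 6.51 ± 0.60), the factor Foxc1 (34.0, 59.1 and 76.6 CPM against 4.52 and 6.41, 3.79 ± 0.40) and the hormone-like Pthlh (65.2, 89.8 and 158 CPM against 7.29 and 16.7, 3.41 ± 0.33, and 4.15 without Embryo 2) were above both other groups. The vitamin D receptor Vdr was higher than in Embryo (5.87 ± 0.30) and overlapped WT. Hox genes, which record position along the body, were low in both groups: 5 of 13 were higher and 3 lower (median 0.63), falling to 3 and 1 without Embryo 1 and to 2 and 1 without Embryo 2. Hoxb3 was the 1 member that SmoM2 cells reached by the class rule (6.28, 7.91 and 14.4 CPM against 7.57 and 11.2 in Embryo and 1.28, 1.45 and 2.44 in WT).

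Cell cycle genes were lower in 22 of 40 and higher in 5 (median -0.63), with 14 within 2-fold. The split was uneven. Ccnd2 read 72.9, 107 and 158 CPM in SmoM2 against 1220 and 1240 CPM in Embryo (-3.04 ± 0.30), and Ccnd1 was higher (52.5, 68.2 and 79.0 CPM against 49.2 and 37.7, 1.02 ± 0.18). Replication genes such as Mcm3 (-1.62 ± 0.31) and Cdc6 (-2.56 ± 0.34, and -1.95 without Embryo 1) were lower, and the proliferation marker Mki67 overlapped (256, 343 and 423 CPM against 544 and 373, -0.06 ± 0.25, within 2-fold). Without Embryo 1, 10 were lower and Mcm3 was not called. Myc (267, 331 and 395 CPM against 128 and 96.7, 1.93 ± 0.22) and the cell cycle inhibitor Cdkn1a (2.51 ± 0.27) were higher. Interferon and MHC genes were higher in 10 of 20 and lower in 1 (median 1.32), among them Ifitm3 (2.17 ± 0.28) and the peptide loader Tapbp (104, 127 and 143 CPM against 24.1 and 22.9, 2.80 ± 0.13).

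Beyond the lists, the 36 genes that SmoM2 cells reached were led, by their distance from WT, by Chrm3, Ptprd and Epha7. Chrm3, a muscarinic acetylcholine receptor, read 20, 25.7 and 37.4 CPM in SmoM2 against 23.3 and 42.6 CPM in Embryo and 0.107 CPM at most in WT (0.04 ± 0.42). Ptprd, a receptor phosphatase (ENSMUSG00000028399, chromosome 4, 75941238 to 78211961), read 110, 128 and 145 CPM in SmoM2 against 145 and 202 CPM in Embryo (-0.07 ± 0.23). Epha7, an ephrin receptor (ENSMUSG00000028289, chromosome 4, 28813131 to 28967499), read 81.6, 116 and 123 CPM in SmoM2 against 82.5 and 144 CPM in Embryo and 0, 0.184 and 0.321 CPM in WT (0.29 ± 0.21, 95% interval -0.12 to 0.71, and 0.77, called higher, without Embryo 2). For all 3 the SmoM2 values lay near the embryo and far from WT. Lactate dehydrogenase subunit Ldhb (19.9, 30.6 and 40.2 CPM against 36.8 and 45.8, -0.12), the calcium channel gene Trpc1, the scaffold gene Akap12, the kinase gene Mylk, the ligase gene Rnf152 and the ceramide enzyme gene Degs2 complete the leading 10 together with Soat1. The cholesterol esterifying enzyme Soat1 read 89.8, 110 and 146 CPM in SmoM2 between an Embryo 1 of 201 and an Embryo 2 of 52.5 CPM (0.19), and without Embryo 1 it was called higher than the embryo (1.54). Degs2 was called lower with plain library totals (-0.81) and without SmoM2 1 (-0.58).

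Among the 16 genes above the embryo, the matrix gene Fbln2 had the largest fold of those described here (311, 372 and 571 CPM in SmoM2 against 6.56 and 10.1 in Embryo, 6.03 ± 0.33), followed by Oit1 (57.6, 89.3 and 136 CPM against 4.52 and 6.69, 4.40), the protease inhibitor gene A2ml1 (37.6, 61.9 and 105 CPM against 1.48 and 8.89, 4.04, and from 3.33 without Embryo 1 to 5.86 without Embryo 2) and Nhsl2 (66.0, 78.1 and 84.9 CPM against 8.96 and 4.58, 3.86, and 4.50 without Embryo 1). Of the pathway lists, Etv1, Lgr5 and Ptch1 were among them. The part-way genes furthest over WT were Ugt8a, an enzyme of galactosphingolipid synthesis (2.84, 5.27 and 8.05 CPM in SmoM2 against 51.5 and 101 in Embryo and no count in WT, -3.50 ± 0.49, and -2.91 without Embryo 2), Brinp3 (0.979, 3.80 and 9.39 CPM against 15.1 and 24.1, no count in WT, -1.65 ± 0.63, not called without Embryo 2, -1.25), the RNA-binding protein gene Msi1 (4.16, 6.06 and 10.3 CPM against 49.5 and 50.1, -2.57), the stem cell factor receptor Kit (13.3, 22 and 39.1 CPM against 96.5 and 130, -1.90 ± 0.52) and the guidance cue Sema3a (5.55, 6.59 and 12.8 CPM against 40.7 and 79.4, -2.58, and -2.0 without Embryo 2).

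Genes not reached included Sox11 and several with no SmoM2 count at all. The developmental factor Eya4 (24.3 and 49.7 CPM in Embryo, at least 765-fold lower in SmoM2) and the kinase gene Nrk (23.1 and 36.7 CPM, at least 619-fold) were high in both embryo libraries. The lipoprotein gene Apob (475 and 1.74 CPM, at least 4910-fold), Akr1c19 (109 and 0.458 CPM, at least 1130-fold) and the brush-border enzyme gene Mgam (77.2 and 0.183 CPM, at least 797-fold) have bounds that rest on Embryo 1, and without it Mgam was not called (adjusted p = 0.480). Cps1, the urea cycle enzyme, had 1 SmoM2 count and read 138 and 2.29 CPM in Embryo, so it rests largely on Embryo 1 as well. Its fold was -10.70 ± 3.77, and -11.64 to -5.68 with 1 library left out. Of the 503 genes not reached, 54 were at least 10-fold higher in Embryo 1 than in Embryo 2.

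SmoM2 cells also held genes at higher levels than the embryo, some of them near silent or without a count there. A set of 485 genes was high in SmoM2 and WT alike (SmoM2 within 2-fold of WT) and at least 2 log2 units over the embryo. Of these, 295 (60.8%) still read at least 5 CPM in both embryo libraries, and the genes named here are the largest folds. The epidermal lipoxygenase Alox12b had no embryonic count (90.6, 124 and 143 CPM in SmoM2, at least 857-fold higher), and Cnfn (152, 201 and 231 CPM against 0.0923 and 0.733, 9.18 ± 1.54, and 8.46 without Embryo 1 and 11.13 without Embryo 2), the proton channel gene Otop3 (92.1, 114 and 118 CPM against 0.277 and 0.183, 9.12) and the carboxylesterase gene Ces2f (114, 245 and 331 CPM against 0.277 and 0.825, 9.06, and 10.02 without Embryo 2) were near silent there. Krtdap, with the TATAAA promoter printed above (ENSMUSG00000074199, chromosome 7, 30787896 to 30791097), belongs here: 384, 502 and 607 CPM in SmoM2 against 3.60 and 3.94 CPM in Embryo and 370, 475 and 847 CPM in WT (7.38 ± 0.28). A set of 142 genes was at least 2 log2 units over both the embryo and WT. The set held 34 genes (23.9%) with at least 5 CPM in both embryo libraries, Ptch1, Lgr5 and Etv1 among them. Its leading members were the GABA transporter Slc6a11 (147, 167 and 205 CPM, no embryonic count, at least 1250-fold higher), Wif1, the lipid transporter Abca13 (31.2, 65.1 and 79.9 CPM against 0.185 and 0.458, no count in WT, 7.87, and 8.62 without Embryo 2), the transglutaminase Tgm7 (3.90, 7.37 and 12.9 CPM, no embryonic count, at least 56.1-fold higher) and the chloride channel Best2 (43.5, 58.0 and 95.9 CPM against 0.831 and 0.458, 6.94). Gli1, Gli2, Lgr6, Krt10, Krt17, Foxe1, Ngfr and Gjb6 belong to it as well.

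**Figure D5:**
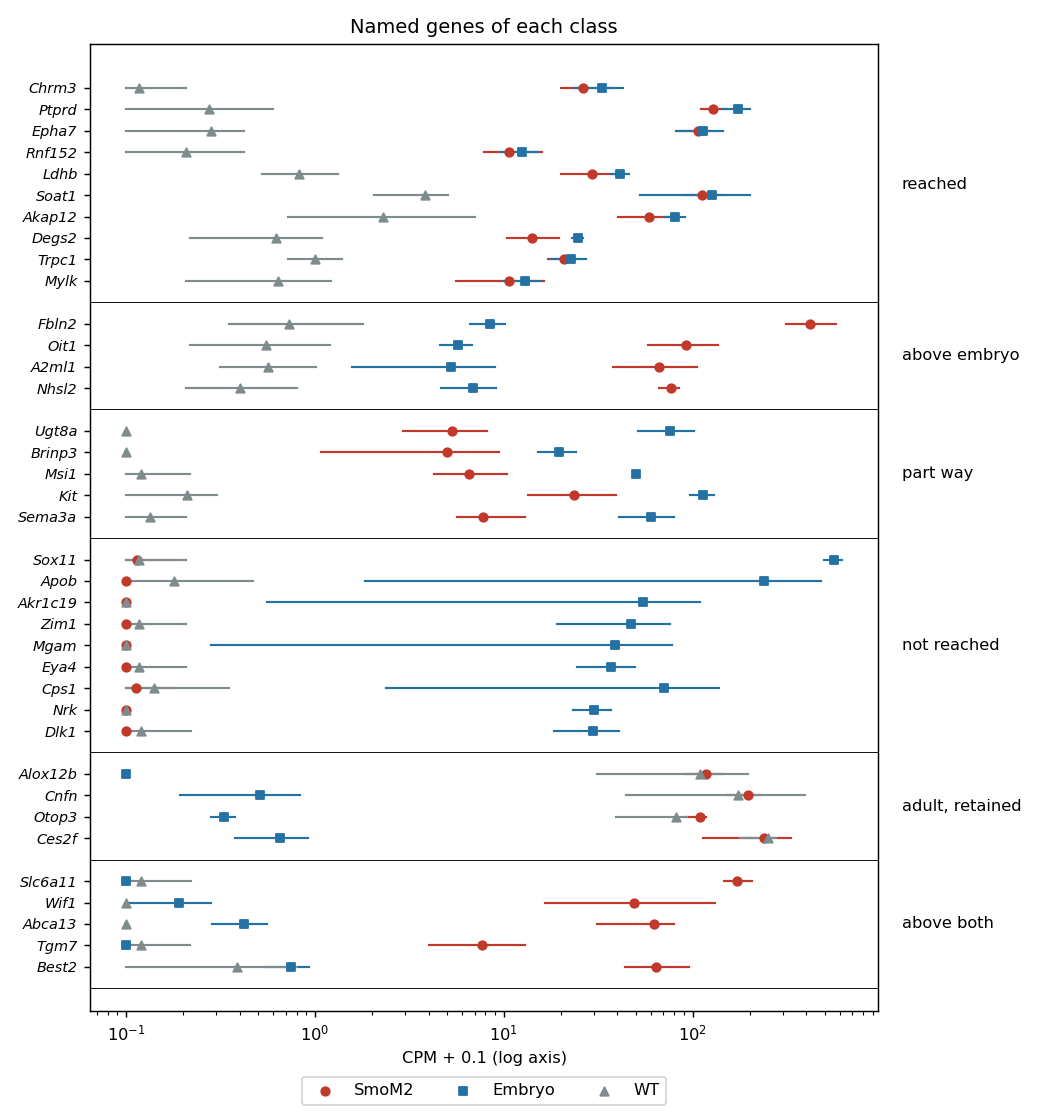
Named genes of each class in SmoM2, Embryo and WT, as CPM + 0.1 on a log axis. Points are group means and bars run from the lowest to the highest library. Genes reached have SmoM2 beside Embryo, such as Epha7 at 81.6 to 123 CPM in SmoM2 against 82.5 and 144 in Embryo, and genes not reached have SmoM2 at or near 0.

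K8YFP+ cells share the reporter, the gate on YFP and the mixed background with Embryo. They were compared with the same 2 embryo libraries, so both comparisons share their controls and are given side by side. Of 22370 genes 13246 were called (59.2%; 26.5% of all tested higher and 32.7% lower), with 44.8% of the calls higher and 24.4% with plain library totals. Oncofetal genes were lower in 21 of 22 in K8YFP+ and 18 in SmoM2, imprinted genes in 19 of 20 in both, and endoderm factors in 13 of 20 in both, with 6 lower in K8YFP+ without Embryo 1. Squamous differentiation genes were higher in 38 of 38 and 37 of 38. Cell cycle genes were lower in 34 of 40 and 22 of 40. Basal genes were higher in 8 and lower in 4 of 20 in K8YFP+, against 14 and 0 in SmoM2, and with plain library totals 10 were lower in K8YFP+. Simple epithelial genes were lower in 13 of 23 in both. Krt8, the gene of the reporter, read 15.4, 39.8 and 10.2 CPM in K8YFP+ 1 to 3 against 380 and 173 CPM in Embryo (-3.15 ± 0.58, -2.40 without Embryo 1 and -3.74 without K8YFP+ 2), and Krt19 read 12.7, 74.1 and 16.2 CPM against 307 and 314 CPM (-2.67 ± 0.41, and -3.78 without K8YFP+ 2). Krt7 read 9.54, 44.8 and 3.93 CPM (-1.70 ± 0.62), a call that was lost without K8YFP+ 1, K8YFP+ 3 or Embryo 2, while without K8YFP+ 2 the fold was -2.89. In Krt8 and Krt19 the K8YFP+ libraries lay above every SmoM2 library and below both embryo libraries, in Krt7 they overlapped SmoM2, and K8YFP+ 2 was highest in each. That library was also highest in markers of 3 other cell types: in K8YFP+ 1 to 3 fibroblast markers summed to 66.2, 583 and 297 CPM, muscle markers to 43.4, 261 and 6.55 CPM and endothelial markers to 23.1, 120 and 39.0 CPM. The endothelial cadherin gene Cdh5 was higher in K8YFP+ than in Embryo (3.78 ± 0.96) but not without K8YFP+ 2 (1.30, adjusted p = 0.256), and the smooth muscle actin gene Acta2 (1.43, adjusted p = 0.0906) turned to -1.21 (adjusted p = 0.0950) without it. The part of these cells in the K8YFP+ values was not tested. Foxa2 read 0.895, 1.24 and 0 CPM (-4.84 ± 0.87, from -5.56 without K8YFP+ 1 to -4.23 without K8YFP+ 3), Igf2 1.34, 1.24 and 1.83 CPM (-9.98 ± 0.49) and Gli1 92.8, 20.5 and 73.1 CPM (4.38 ± 0.32). K8YFP+ 2 was the shallowest library of its group (1.61 M counts), and 3 counts make 1.867 CPM there. Its values for Foxa2 and Igf2 lie under that level. Sox4 read 90.1, 39.8 and 76.3 CPM and was lower than in Embryo (-1.47 ± 0.28). Of the leading genes that SmoM2 cells reached, Chrm3 (-1.67), Ptprd (-1.26) and Soat1 (-1.32) were lower in K8YFP+ than in Embryo. Rnf152 (1.37) and Mylk (1.15) were higher, and Epha7, Ldhb, Akap12, Degs2 and Trpc1 were not called.

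EpCAM-high SmoM2 cells labelled 3w and 7w (n = 4 each), for which the labels do not say what the weeks count from, carried some but not all of these values. Ranges are given as a description with no test. The number that leads the raw library names differs between 3w, 7w and SmoM2, and its share in any difference between them cannot be told apart. Ptch1 lay at 766 to 902 CPM at 3w, 1610 to 1950 at 7w and 1000 to 1670 in SmoM2. Epha7 lay at 96.0 to 110 CPM at 3w and 194 to 229 at 7w, against 81.6 to 123 in SmoM2, so the 3w libraries lay within the embryonic range of 82.5 to 144 CPM and the 7w libraries above it. Other leading genes reached differed. Chrm3 lay at 1.17 to 3.09 CPM at 3w and 5.91 to 17.2 at 7w, and Ldhb at 5.22 to 7.76 and 9.24 to 12.3. Both genes stayed under both embryo libraries, as did Akap12, Mylk, Trpc1 and Degs2. Ptprd and Soat1 lay under Embryo at 3w and overlapped it at 7w. Rnf152 overlapped Embryo at 3w and lay above it at 7w. Lgr5 lay at 32.1 to 66.6 CPM at 3w and 119 to 233 at 7w. Sox4 lay at 95.2 to 115 CPM at 3w and 183 to 230 at 7w, under the 269 to 494 CPM of SmoM2. Krt8 was at most 0.92 CPM at 3w and 0.96 at 7w, Hmga2 at most 0.14 and 0.24 CPM, and Foxa2 had no count in any of these 8 libraries, where it was found in all 6 SmoM2 libraries.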

How the data were processed

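Total RNA of sorted cells was sequenced, per the labels' protocols, from NuGEN Ovation Solo libraries on a NovaSeq 6000. The authors deposited raw read counts for each Ensembl gene. Per the submitters' processing notes they used STAR 2.5.3a, HTSeq and edgeR, with GRCm38 and mm10 named as builds. Neither the annotation release nor the handling of strand is given in the sources used here, so genes that overlap on opposite strands, Igf2 and Rtl1 among them, cannot be told apart from their partners. The table held 52636 genes in 51 libraries of 14 groups, 10741 genes with no count, with 0 columns unused. Of the identifiers 52489 were found in GENCODE M21 on GRCm38, which gave symbols and coordinates, and for 97 symbols on several identifiers the one with most counts was used. Reads of the SmoM2 transgene may count towards Smo, which was not tested.

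From these counts, 1 fit of all 51 libraries was made in edgeR 4.0.16 (R 4.3.3), since the 2 embryo libraries give little spread of their own: TMM scaling, filterByExpr (minimum count 10, minimum total 15), a mean per group and two-sided quasi-likelihood F tests, with Benjamini-Hochberg adjustment over all genes of a comparison. Intervals are 95% intervals of the fitted fold. CPM use plain library totals. A group without counts is set to a floor of 3 counts over the group, 0.0484 CPM in SmoM2, 0.247 in K8YFP+, 0.138 in Embryo and 0.0563 in WT, and floors and counting intervals cover counting error only. The fit was tested first on simulated counts with 1 dispersion (0.1) in every group and 200 genes changed in SmoM2. It called 96% and 90% of genes changed by -2 and 2 log2 units. Of those changed by -1 and 1 it called 26% and 16%. Embryo libraries that differ from each other were not simulated, so how the fit handles them was not tested.

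The gene lists, the classes and the genes named were chosen with earlier results of these data known. Genes named are anchor genes of the lists, up to 4 called members per list and direction with the largest folds and 5 CPM or more in the higher group, members named for their role, and the leading genes of each class. A few genes that this rule names are not reported here. Alternatives were RLE and plain-total scaling, no filter, DESeq2 1.42.0, fits of fewer groups, a replicate block, a minimum fold, a 1.5-fold band, WT pairs 3 and 5, and 4 and 6, summed (alike in raw name but for the leading number, they differed least, 1.92 and 2.47 in chi-square per degree of freedom), and each library left out.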

Additional observations from a re-analysis of the deposited data

Results flagged for a closer look

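Among SmoM2 libraries, 8 of 58 genes examined had 1 library whose gap to the nearest other, as a share of the range of the 6, passed the 95% limit of Dixon's test. Chance flags about 1 in 20 groups. SmoM2 1 stood out in 4 of them: it was high for Sox9 (194 CPM, against 72.7 to 116 in the other 5), Krt5 (3130, against 2210 to 2430) and Wif1 (131, against 16.5 to 54.7) and low for Krt15 (622, against 680 to 708). Its raw library name leads with another number than the names of SmoM2 2 to 6, which share theirs. Whether that bears on these flags was not tested. SmoM2 4 was high for Gli1 (288 CPM, against 194 to 225) and Krt10 (981, against 568 to 656). SmoM2 2 was high for Hmga2 (7.72 CPM, against 0.632 to 3.28), and SmoM2 6 was low for Krt20 (15 CPM, against 41.0 to 44.4). None of these genes changed its call or direction against Embryo when that library was left out. The 2 embryo libraries were too few for this rule.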

How the results depend on the processing

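With each library left out in turn, 10339 to 12579 genes were called between SmoM2 and Embryo, 5179 to 6649 lay within 2-fold, and 11565 to 12602 were called between K8YFP+ and Embryo. These counts stayed within 1.5 times their values in the report with RLE scaling, plain library totals, no filter, fits of the 2 groups alone or with WT, WT pairs summed and DESeq2. A minimum fold of 2 in the test left 5214 genes called between SmoM2 and Embryo, and a 1.5-fold band held 2525. Replicate numbers were not taken to pair these libraries. Libraries of equal number correlated by 0.09 and 0.03 (SmoM2) and by -0.09 and -0.01 (K8YFP+) with Embryo after group means were removed. With 2 embryo libraries their residuals mirror each other, so these values cannot exclude a pairing. A replicate block in a fit of the 2 groups gave 8120 calls for SmoM2, 7135 for K8YFP+ and 4282 genes within 2-fold. Of the named genes called between SmoM2 and Embryo Igf2r changed sign, ranging with 1 library left out from -0.67 to 0.16, where 0.16 was without Embryo 1 and not called. The genes reached numbered 26 without Embryo 1, 17 without Embryo 2, 33 to 42 without a SmoM2 library, 34 with DESeq2 and 48 with plain library totals, chosen after seeing the data like the level of 5 CPM in both embryo libraries. Endoderm factors lower in SmoM2 numbered 4 in the fit of the 2 groups alone, where Sox4 was called higher. The 2 embryo libraries limit what can be called, so a gene not called may still differ.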
